A study of Mus musculus with 14 samples.

Results

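Cell sorting of early limb buds is meant to leave the mesenchyme and to discard blood, vessels, surface ectoderm and nerve. The genes described here are 35 markers of those discarded lineages, of 24454 genes in the table: 10 endothelial, 6 erythroid, 5 leukocyte, 10 surface ectoderm and 4 neural crest or glial genes. They were chosen as markers of these lineages and were followed in all 14 libraries to ask how pure each sorted population was at the RNA level.

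The 14 libraries were poly(A)-selected RNA of cells sorted from pooled mouse forelimb buds of Sox9-IRES-EGFP embryos, which carry a green reporter at the Sox9 locus, on a mixed Swiss Albino background. No mutant or treatment was part of these libraries. At E10.5 the populations were S9-JAG1+ limb bud mesenchymal progenitors (LMPs, no Sox9 reporter, JAG1 on the surface, 3 libraries), S9-Pαhi LMPs (no Sox9 reporter, high PDGFRα, 3 libraries), S9+Pαhi osteo-chondrogenic progenitors (OCPs, Sox9 reporter and high PDGFRα, 3 libraries) and S9-SCA-1+ cells (no Sox9 reporter, SCA-1 on the surface, 2 libraries, numbered 2 and 3). S9+Pαhi Col2a1+ chondroblasts, with 3 libraries, came from E11.5 buds, so their population and their stage cannot be told apart. Every population was also gated on live cells without CD31, Ter119, CD45, EpCam, Gr1 and CD11b, and 3 of the markers, Pecam1 (CD31), Ptprc (CD45) and Epcam, encode proteins that this gate removed. Each library is a pool of buds, and nothing in the labels says whether pools of different populations shared embryos, so the p-values measure the spread between these libraries. In bulk RNA, fewer cells of a type and less RNA per cell cannot be told apart.

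The gate removes proteins, and the markers read RNA. Primitive erythroid cells, which circulate in the early embryo, carry enormous amounts of embryonic globin RNA, so that very few of them can be seen in a library, and Ter119 appears on erythroid cells as they mature. Endothelial cells line the vessels that invade the bud, leukocytes at this age are mostly primitive macrophages, and the surface ectoderm with its distal ridge covers the mesenchyme. Neural crest cells enter the bud with the nerves and give rise to Schwann cell precursors.

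Total counts ran from 20316583 to 29162751 per library, with a median of 25554498, and 3 reads, taken as the floor of detection, corresponded to between 0.101 and 0.149 CPM (the share of a gene in the library, scaled to a common total) on totals scaled with edgeR's TMM factors, the unit of all levels below. Genes of the sort were highest where the labels place them: Jag1 was at 227.9 to 363.6 CPM in S9-JAG1+ LMPs, Sox9 at 411.3 to 624.6 CPM in OCPs and chondroblasts and Ly6a (SCA-1) at 3.36 and 3.10 CPM in S9-SCA-1+ cells. Pdgfra was at 246 to 949.4 CPM in the 12 mesenchymal libraries and at 44.8 and 24.0 CPM in S9-SCA-1+ cells, although the methods describe these as taken from PDGFRα-positive cells. The label S9-SCA-1+ names no cell type, and both of its libraries held muscle precursor genes at high levels, with Pax3 at 428.3 and 497.9 CPM against at most 1.39 CPM in the other 12 libraries. S9-SCA-1+ replicate 3 stood apart from replicate 2 in erythroid genes. Calls of single markers that were lost without replicate 3 are named below. Other S9-SCA-1+ results, and counts of calls in the lists, are given with both libraries, except where stated.

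Of the 35 markers, 14 were over 3 counts in all 14 libraries and 1, Tyrobp, in none. In 21 the highest population mean reached 1 CPM, and in 9 it reached 10 CPM. A test across genes could be made for 27, and the 8 others (Sox17, Cldn5, Ptprc, Csf1r, Fcer1g, Tyrobp, Krt5 and Krt14) were too low and are given as levels. The highest mean level was in chondroblasts for 11 markers, in S9-SCA-1+ cells for 10, in S9-Pαhi LMPs for 5, in OCPs for 5 and in S9-JAG1+ LMPs for 4. All libraries of a population lay above all others for 8 markers in chondroblasts (13.2% of all genes tested), 7 in S9-SCA-1+ cells (10.8%), 1 in OCPs (1.24%), and 0 in S9-Pαhi LMPs (1.16%) and S9-JAG1+ LMPs (6.73%). They lay below all others for 2 markers in S9-SCA-1+ cells (10.1%), 1 in chondroblasts (11.6%), 1 in S9-JAG1+ LMPs (7.23%), and 0 in OCPs (1.04%) and S9-Pαhi LMPs (0.873%). These counts are over all 35 markers, the 8 untested ones included, while the shares are over the 15125 genes tested. Among the 7 in S9-SCA-1+ cells, Ptprc was untested.

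**Figure D1:**
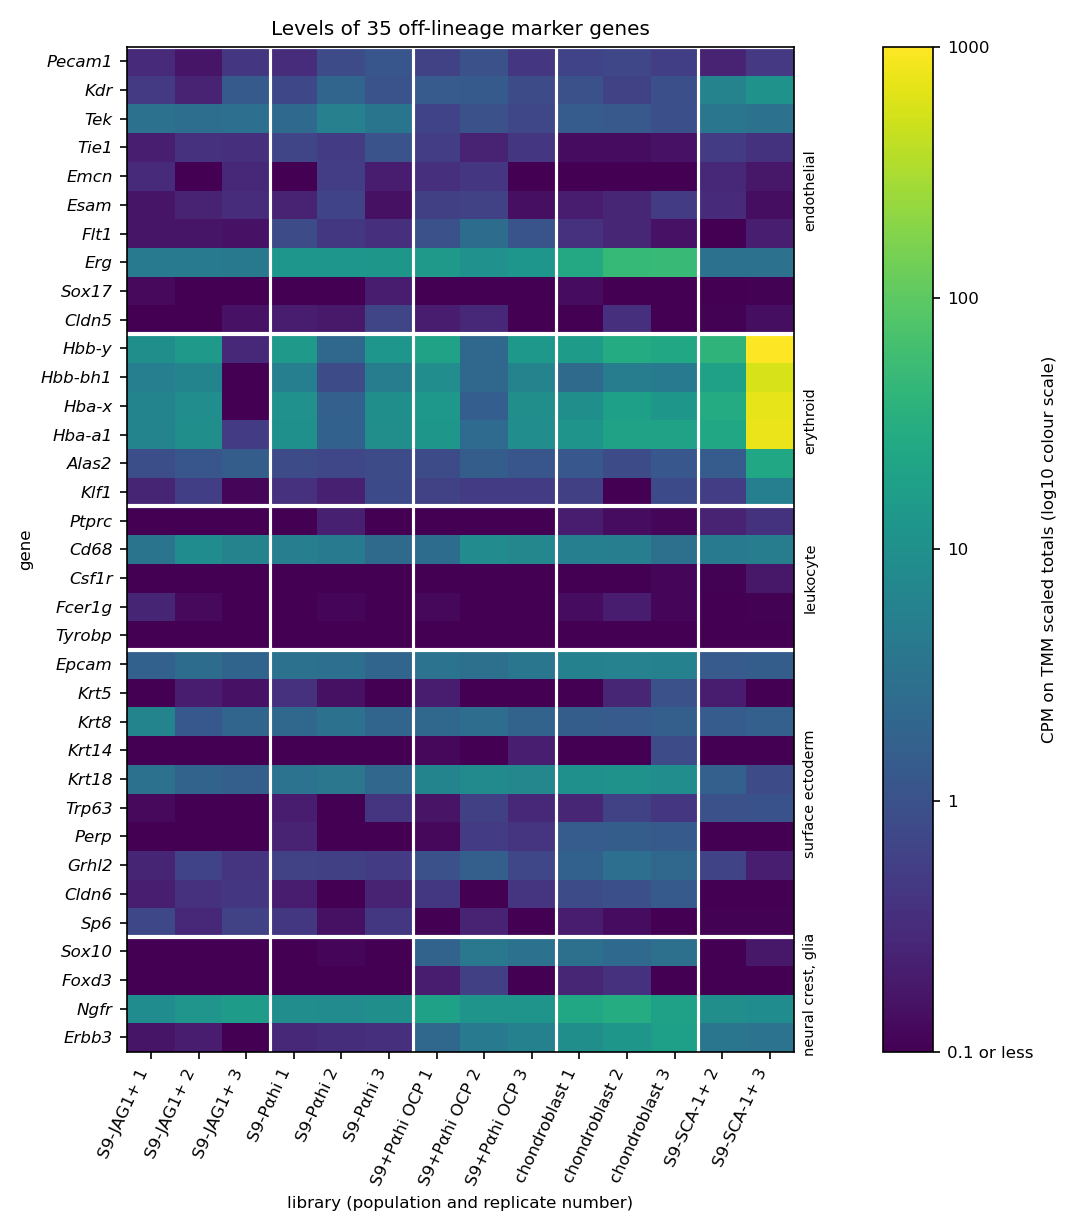
Level of each of the 35 markers (rows, grouped by lineage) in each of the 14 libraries (columns, by population and replicate number), as CPM on TMM scaled totals on a log10 colour scale that starts at 0.1. The globin rows are brightest in S9-SCA-1+ replicate 3, Sox10 and Erbb3 are bright in OCPs and chondroblasts, and 4 of the 5 leukocyte rows are dark in all libraries.

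One comparison per population, its mean against that of the other 4, was made in 1 edgeR quasi-likelihood fit over 15125 genes, and a call needed a Benjamini-Hochberg adjusted p of at most 0.1 and a log2 fold change of at least 1.2 in size. S9-SCA-1+ cells had 9 markers called higher, where 4.46% of all genes were, and 6 called lower, where 6.80% were. Chondroblasts had 9 called higher (11.0% of all genes) and 2 lower (1.71%). S9-JAG1+ LMPs had 1 called higher (2.88%) and 10 lower (7.70%). OCPs had 5 called higher (3.37%) and 1 lower (1.64%), and S9-Pαhi LMPs had 1 higher (1.53%) and 2 lower (2.31%). Against OCPs alone, chondroblasts had 4 markers called higher (6.60%) and 2 lower (1.16%). The comparisons share libraries, so a gene high in 1 population tends to be low in the rest.

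Every erythroid member was highest in S9-SCA-1+ replicate 3, and the promoters of 4 of them are shown first. They span the members' roles: Hbb-y is an embryonic beta-like globin, Hba-x the embryonic zeta-like alpha globin, Alas2 the first enzyme of heme synthesis in red cells, and Klf1 a transcription factor that drives erythroid genes. The sequences are the RefSeq promoters on GRCm38.p6 (mm10), 250 bases before to 50 after the start, read 5′ to 3′ on the gene's strand, at chr7:103853158-103853457 (minus strand), chr11:32276350-32276649 (plus), chrX:150547167-150547466 (plus) and chr8:84901732-84902031 (plus). Capitals mark matches on either strand to GATAA, the core of a GATA factor site, or to CCNCNCCC, a CACCC-type motif of KLF factors, and matches can overlap.
Hbb-y: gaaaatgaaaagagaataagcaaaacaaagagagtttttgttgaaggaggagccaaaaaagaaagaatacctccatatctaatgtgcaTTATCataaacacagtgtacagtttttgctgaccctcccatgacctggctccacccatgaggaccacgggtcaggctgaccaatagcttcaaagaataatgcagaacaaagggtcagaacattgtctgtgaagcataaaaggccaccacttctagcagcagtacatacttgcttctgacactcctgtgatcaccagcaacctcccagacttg
Hba-x: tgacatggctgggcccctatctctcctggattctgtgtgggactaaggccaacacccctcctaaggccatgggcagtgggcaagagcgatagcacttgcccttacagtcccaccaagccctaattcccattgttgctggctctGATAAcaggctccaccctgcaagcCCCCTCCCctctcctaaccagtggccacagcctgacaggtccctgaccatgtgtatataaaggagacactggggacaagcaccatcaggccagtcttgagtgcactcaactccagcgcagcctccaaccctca
Alas2: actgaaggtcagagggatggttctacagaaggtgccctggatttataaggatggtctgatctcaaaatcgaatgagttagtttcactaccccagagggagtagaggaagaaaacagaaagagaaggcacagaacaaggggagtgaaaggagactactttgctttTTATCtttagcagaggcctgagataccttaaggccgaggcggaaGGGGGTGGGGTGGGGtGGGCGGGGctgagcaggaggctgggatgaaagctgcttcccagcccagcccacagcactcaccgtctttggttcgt
Klf1: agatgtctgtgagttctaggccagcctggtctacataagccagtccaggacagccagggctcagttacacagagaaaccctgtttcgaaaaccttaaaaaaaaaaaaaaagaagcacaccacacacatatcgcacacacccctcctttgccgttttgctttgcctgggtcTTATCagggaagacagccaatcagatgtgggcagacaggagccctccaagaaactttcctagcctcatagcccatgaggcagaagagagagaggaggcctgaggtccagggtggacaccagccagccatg
GATAA was found in all 5 erythroid promoters in the table, these 4 and Hba-a1, and in 25.4% of the 32851 promoters of the same length. It was also found in 5 of 6 promoters of the ectoderm markers. CCNCNCCC was found in 2 of the 5 erythroid promoters, with 1 match in Hba-x and 4 in Alas2, and in 49.5% of all promoters. A match is a description of the letters and not a bound site.

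Embryonic globin RNA was measured in every population and was highest in S9-SCA-1+ cells, chiefly in 1 of their libraries. Hbb-y (Entrez 15135, chromosome 7, 103851754 to 103853207) was at 9.80, 14.3 and 0.277 CPM in S9-JAG1+ LMPs, 14.0, 2.26 and 12.8 CPM in S9-Pαhi LMPs, 20.1, 2.28 and 13.6 CPM in OCPs, 15.9, 28.9 and 24.9 CPM in chondroblasts, and 40.7 and 1125 CPM in S9-SCA-1+ cells. Both S9-SCA-1+ libraries lay above the other 12, and the 2 differed 27.7-fold from each other. The E10.5 mesenchymal populations overlapped throughout, and in each of the 3 a single library, replicate 3 of S9-JAG1+ LMPs and replicate 2 of S9-Pαhi LMPs and of OCPs, lay well under the other 2.

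Hbb-bh1 (Entrez 15132, chromosome 7, 103841638 to 103843162), the second embryonic beta-like globin, had a like pattern. It was at 5.39, 6.45 and 0.0793 CPM in S9-JAG1+ LMPs, 5.41, 0.827 and 5.03 CPM in S9-Pαhi LMPs, 9.29, 2.19 and 6.11 CPM in OCPs, 2.42, 4.76 and 4.44 CPM in chondroblasts, and 19.5 and 567.2 CPM in S9-SCA-1+ cells. Chondroblasts lay within the range of the E10.5 mesenchymal libraries for this gene.

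The alpha-like globins followed. Hba-x (Entrez 15126) ran from 0.0396 CPM in S9-JAG1+ replicate 3 to 17.9 CPM in chondroblast replicate 2 among the 12 mesenchymal libraries, and was at 28.6 and 720.0 CPM in S9-SCA-1+ cells. Hba-a1 (Entrez 15122), an adult-type alpha globin already transcribed in primitive erythroid cells, ran from 0.515 to 20.3 CPM in the same 12 libraries and was at 24.9 and 775.1 CPM. Hba-a1 and its near-identical copy Hba-a2 had equal counts in 13 of 14 libraries, so that their reads cannot be split between them.

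The non-globin members were far less abundant. Alas2 (Entrez 11656, chromosome X) was at 0.714 to 1.52 CPM in the 12 mesenchymal libraries, 1.43 CPM in S9-SCA-1+ replicate 2 and 24.3 CPM in replicate 3. The 2 S9-SCA-1+ libraries thus fell on either side, replicate 2 inside the mesenchymal range and replicate 3 far above it. Since 15.5% of the exon bases of Alas2 lie antisense to Apex2 or a microRNA gene and the use of strand in counting is not stated, its low values are uncertain. Klf1 (Entrez 16596, chromosome 8) was at 0.0684 to 0.797 CPM in the mesenchymal libraries, 0.525 CPM in S9-SCA-1+ replicate 2 and 5.23 CPM in replicate 3.

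All 6 erythroid members rose in S9-SCA-1+ cells when set against the other 4 populations. In edgeR, log2 fold changes were 6.10 for Hbb-bh1 (standard error, SE, 0.67, adjusted p = 6.75e-06), 5.58 for Hbb-y (0.71, adjusted p = 2.85e-05), 5.53 for Hba-x (0.70, adjusted p = 2.57e-05) and 5.53 for Hba-a1 (0.67, adjusted p = 1.72e-05). It was 3.62 for Alas2 (SE 0.48, adjusted p = 3.87e-05) and 2.72 for Klf1 (SE 0.59, adjusted p = 0.00219). The median over the 6 was 5.53, against -0.013 over all genes tested. Without S9-SCA-1+ replicate 3 the call held for Hbb-bh1 alone, at a log2 fold change of 2.19 (adjusted p = 0.0763). The other 5 calls were lost with edgeR, at 1.74 for Hbb-y (adjusted p = 0.197), 1.82 for Hba-x (adjusted p = 0.181), 1.52 for Hba-a1 (adjusted p = 0.205), 0.45 for Alas2 (adjusted p = 0.413) and 0.27 for Klf1 (adjusted p = 0.854), where the lone library is taken to vary like the others.

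**Figure D2:**
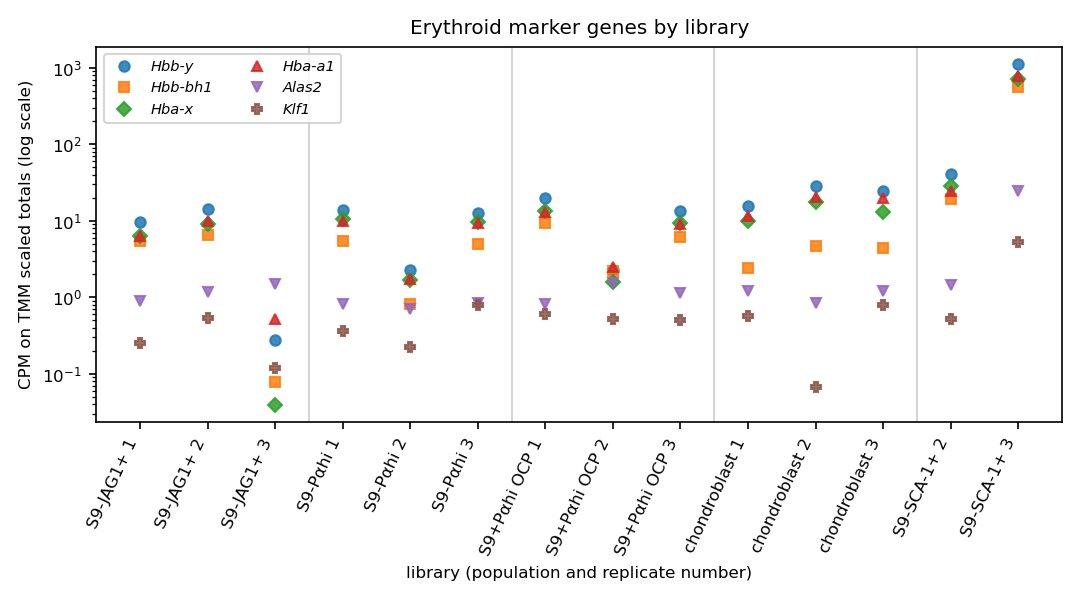
Level of the 6 erythroid markers (symbols) in each of the 14 libraries, as CPM on TMM scaled totals on a log axis. S9-SCA-1+ replicate 3 is highest for all 6, with Hbb-y at 1125 CPM, and S9-JAG1+ replicate 3 is lowest for Hbb-y, Hbb-bh1, Hba-x and Hba-a1.

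Other genes of the erythroid list rose with them. Of 14 further erythroid genes listed, 10 could be tested, and S9-SCA-1+ cells had all 10 called higher, where 4.46% of all genes were. Hbb-bs with Hbb-b1, and Hbb-bt with Hbb-b2, had the same counts, and Hba-a2 shares its reads with Hba-a1, so that 7 of the 10 carry counts of their own. Without S9-SCA-1+ replicate 3, 1 of the 10, Slc4a1, was called higher. Slc4a1, the anion exchanger of the red cell membrane, was at 2.55 CPM in S9-SCA-1+ replicate 2 and 72.6 CPM in replicate 3, against 0.0793 to 1.69 CPM in the mesenchymal libraries. Epor, the erythropoietin receptor, was at 1.26 and 5.80 CPM. Named after their values were seen, Gata1 and Tal1, regulators of early erythroid cells, were at 2.64 and 8.26 CPM in S9-SCA-1+ replicate 3 and at no more than 0.168 and 0.315 CPM in any other library. Of 15125 genes tested, 27 reached 1 CPM and were at least 10-fold higher in replicate 3 than in replicate 2, and 1 was the reverse. Among the 27 were 5 of the 6 members and 8 further genes of the erythroid list, together with Sptb, which encodes a red cell spectrin, and Mt1, Mt2 and Hspa1a, which encode metallothioneins and an inducible heat shock protein (chosen after their values were seen). The 8 include Hba-a2, Hbb-bs with Hbb-b1 and Hbb-bt with Hbb-b2, so that some of the 27 share the same reads.

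The difference between the 2 S9-SCA-1+ libraries was not even across the erythroid members. Replicate 3 was 31.1-fold above replicate 2 for Hba-a1, 29.1-fold for Hbb-bh1, 27.7-fold for Hbb-y, 25.2-fold for Hba-x, 17.0-fold for Alas2 and 9.98-fold for Klf1. These are single libraries, with no replicate check. The muscle precursor gene Pax3 differed much less between them, as given above, and the 6 erythroid members took 115.7 CPM of replicate 2 and 3217 CPM of replicate 3. Summed over the 6, the mesenchymal libraries ran from 2.54 to 41.6 CPM in S9-JAG1+ LMPs, 7.48 to 41.4 CPM in S9-Pαhi LMPs, 10.6 to 57.5 CPM in OCPs and 41.7 to 72.8 CPM in chondroblasts.

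In S9-JAG1+ LMPs, Hba-a1 and Hba-x had log2 fold changes of -2.19 and Hbb-y of -2.13 against the mean of the other 4, each called lower (adjusted p = 0.0683, 0.0807 and 0.0879). These calls rest on which libraries enter. Without S9-SCA-1+ replicate 3 they were -1.18, -1.26 and -1.17 (adjusted p = 0.181, 0.227 and 0.249), and without S9-JAG1+ replicate 3 they were -1.63, -1.59 and -1.55 (adjusted p = 0.216, 0.229 and 0.245, edgeR). Leaving out S9-JAG1+ replicate 1 also ended them, at -2.29, -2.37 and -2.29 (adjusted p = 0.138, 0.146 and 0.157). For Hba-x, leaving out S9-Pαhi replicate 1 or 3, OCP replicate 3 or chondroblast replicate 2 did the same, with adjusted p between 0.104 and 0.116. Leaving out any of these 4 or chondroblast replicate 3 did so for Hbb-y, with adjusted p between 0.107 and 0.124. In OCPs and chondroblasts edgeR and DESeq2 called 0 of the 6 erythroid members (0 at an unadjusted p under 0.05), and in S9-Pαhi LMPs edgeR called 0 and DESeq2 called 1 (1 at an unadjusted p under 0.05). The further erythroid list, with 10 genes tested of which some share counts, did have calls. In edgeR 3 were higher in chondroblasts (11.0% of all genes) and 2 higher in chondroblasts against OCPs (6.60%). Called lower were 2 in OCPs (1.64%), 4 in S9-JAG1+ LMPs (7.70%) and 1 in S9-Pαhi LMPs (2.31%). Repeats of these counts without S9-SCA-1+ replicate 3 are not given.

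The make-up of the beta-like globin RNA differed between the chondroblasts and the E10.5 libraries, a pattern noticed in the values and therefore given without a test. Among reads of Hbb-y and Hbb-bh1, the share of Hbb-bh1 was 13.2% in chondroblast replicate 1 (95% exact binomial interval 10.48 to 16.4%, 545 reads), 14.1% in replicate 2 (12.0 to 16.4%, 985 reads) and 15.1% in replicate 3 (12.6 to 17.9%, 747 reads). In the 11 libraries from E10.5 it ran from 22.2% to 48.9% with a median of 31.1%, and in the 8 of them with at least 100 such reads from 27.8% to 35.5%. The 3 E10.5 libraries with fewer reads were S9-JAG1+ replicate 3 (22.2%, interval 2.81 to 60.0%, 9 reads), S9-Pαhi replicate 2 (26.8%, 17.6 to 37.8%, 82 reads) and OCP replicate 2 (48.9%, 38.5 to 59.5%, 94 reads). The intervals cover counting error only.

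The 2 S9-SCA-1+ libraries had like shares despite their difference in level. Hbb-bh1 made up 32.4% (30.2 to 34.7%, 1721 reads) in replicate 2 and 33.5% (33.1 to 33.9%, 47531 reads) in replicate 3. Among reads of Hbb-y and the adult-type beta globin Hbb-bs, Hbb-bs held 4.25, 5.48 and 5.80% in the 3 chondroblast libraries. It held 0.402 to 3.78% in the 8 E10.5 libraries with at least 100 such reads, and in the 3 with fewer it held 30.0% (S9-JAG1+ replicate 3, 10 reads, interval 6.67 to 65.3%), 7.69% (S9-Pαhi replicate 2, 65 reads, 2.55 to 17.1%) and 4.00% (OCP replicate 2, 50 reads, 0.488 to 13.71%), so that over all E10.5 libraries the shares overlapped with those of the chondroblasts. Hbb-bs and Hbb-b1 are near-identical and had the same counts in all 14 libraries. Since the chondroblasts are the only E11.5 population, stage and population cannot be told apart in these shares.

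**Figure D3:**
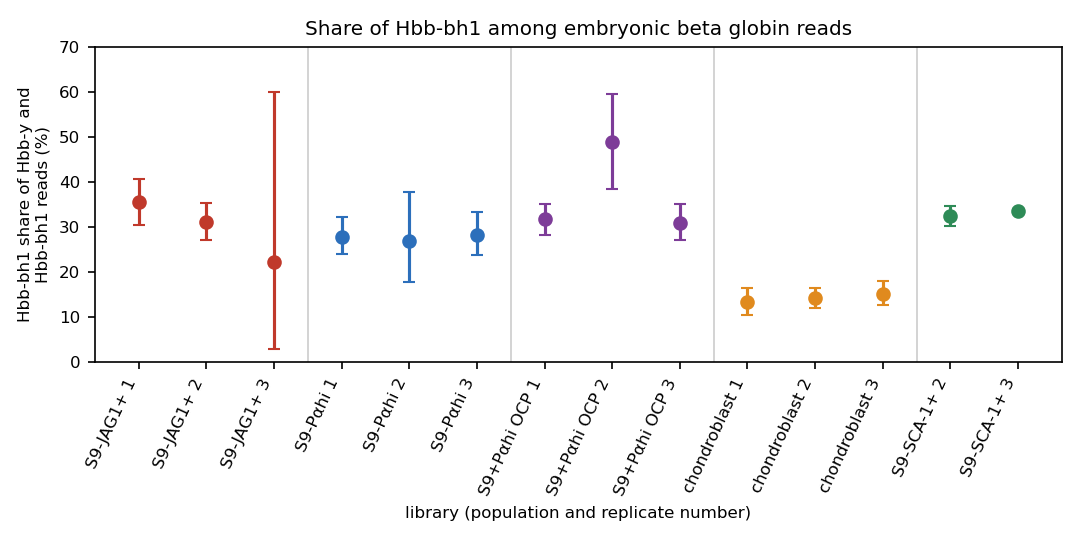
Share of Hbb-bh1 among Hbb-y and Hbb-bh1 reads (percent) in each of the 14 libraries; bars are 95% exact binomial intervals, which cover counting error only, and colours mark the 5 populations. The 3 chondroblast libraries (E11.5) lie at 13.2 to 15.1% and the 11 others (E10.5) at 22.2 to 48.9%.

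Most endothelial members were low in every population, and 4 of the 10, Erg, Kdr, Tek and Flt1, reached a population mean of 1 CPM. Erg, Kdr and Tek did so in more than 1 population. Pecam1 (Entrez 18613, chromosome 11), which encodes the gated CD31, was at 0.300, 0.168 and 0.436 CPM in S9-JAG1+ LMPs, 0.325, 0.827 and 1.19 CPM in S9-Pαhi LMPs, 0.608, 0.998 and 0.434 CPM in OCPs, 0.639, 0.718 and 0.550 CPM in chondroblasts, and 0.245 and 0.463 CPM in S9-SCA-1+ cells. The populations overlapped, and edgeR and DESeq2 called it in none of the 6 comparisons (0 at an unadjusted p under 0.05). Its highest value was in S9-Pαhi replicate 3, which also held the highest Tie1 (1.05 CPM) and Cldn5 (0.697 CPM), a receptor and a tight junction protein of endothelium. The same library was among the lowest for Esam (0.149 CPM) and inside the range for Emcn, Flt1 and Kdr, and the highest Tek, Emcn and Esam were in S9-Pαhi replicate 2 (5.49, 0.526 and 0.639 CPM).

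Erg (Entrez 13876, chromosome 16, 95359169 to 95586600), an ETS transcription factor of endothelium that is also known from cartilage precursors, was the most abundant endothelial member. It was at 4.54, 4.69 and 4.20 CPM in S9-JAG1+ LMPs, 12.8, 12.7 and 13.0 CPM in S9-Pαhi LMPs, 14.0, 10.7 and 12.6 CPM in OCPs, 26.3, 47.9 and 51.7 CPM in chondroblasts, and 3.11 and 3.13 CPM in S9-SCA-1+ cells. The chondroblast libraries lay above all others and the S9-SCA-1+ libraries below all others, while S9-Pαhi LMPs and OCPs overlapped. Erg rose in chondroblasts against the mean of the other 4 (log2 fold change 2.61, SE 0.14, adjusted p = 4.91e-09, edgeR) and against OCPs (1.75, SE 0.19, adjusted p = 2.68e-05). It fell in S9-SCA-1+ cells (-2.07, SE 0.23, adjusted p = 6.25e-06) and in S9-JAG1+ LMPs (-1.43, SE 0.18, adjusted p = 2.64e-05).

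Kdr (Entrez 16542, chromosome 5, 75932827 to 75979072), a receptor for vascular endothelial growth factor and among the earliest endothelial genes, had another pattern. It was at 6.09 and 10.9 CPM in S9-SCA-1+ cells, against 0.471, 0.251 and 1.35 CPM in S9-JAG1+ LMPs, 0.732, 1.99 and 1.05 CPM in S9-Pαhi LMPs, 1.42, 1.38 and 0.832 CPM in OCPs, and 0.975, 0.616 and 0.942 CPM in chondroblasts. Both S9-SCA-1+ libraries lay above the other 12, which overlapped. Kdr rose there by a log2 fold change of 3.12 (SE 0.34, adjusted p = 6.05e-06, edgeR), and without S9-SCA-1+ replicate 3 it was 2.64 (adjusted p = 0.00111). Kdr was called lower in S9-JAG1+ LMPs (-1.38, SE 0.43, adjusted p = 0.02), a call that ended without S9-JAG1+ replicate 1 (-1.17, under the fold limit) and without replicate 2 (-0.97, adjusted p = 0.111).

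No endothelial member other than Kdr was called higher in S9-SCA-1+ cells. Flt1, a second VEGF receptor, was at 0.0699 and 0.214 CPM there, and was called lower (-1.61, SE 0.61, adjusted p = 0.0502), a call lost without S9-SCA-1+ replicate 2 (-1.03, adjusted p = 0.359, edgeR). Tie1 was at 0.490 and 0.392 CPM, Emcn at 0.280 and 0.178 CPM, Esam at 0.315 and 0.142 CPM, Sox17 at 0.0350 and 0.107 CPM and Cldn5 at 0.105 and 0.142 CPM in S9-SCA-1+ cells. Each value lay inside the range of the other 12 libraries, except the lower one of Esam, which was just under it. Summed without Erg, the endothelial members were at 13.5 ± 3.09 CPM (SD, n = 2) in S9-SCA-1+ cells and at means of 3.74 to 8.18 CPM in the other populations, and Kdr makes up most of that sum in S9-SCA-1+ cells. Their muscle precursor genes are given above, and the part of the cells that carry them in the Kdr level was not tested.

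Flt1 (Entrez 14254, chromosome 5) was highest in OCPs, at 0.973, 2.61 and 1.08 CPM against 0.0699 to 0.813 CPM in the other 11 libraries. All 3 OCP libraries lay above all others, although replicate 2 was more than the other 2 together. Its log2 fold change was 2.64 in OCPs (SE 0.36, adjusted p = 0.00012) and -2.49 in chondroblasts against OCPs (SE 0.49, adjusted p = 0.0023, edgeR). It was called lower in S9-JAG1+ LMPs (-1.33, adjusted p = 0.0555), which held 4 reads in each library, near the floor. That call was lost, with log2 fold changes of -1.09 to -1.36, when any 1 S9-JAG1+ library, OCP replicate 2 or S9-SCA-1+ replicate 3 was left out.

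Tek (Entrez 21687, chromosome 4), the angiopoietin receptor, was lowest in OCPs. It was at 0.649, 0.998 and 0.723 CPM there, 1.48, 1.30 and 0.942 CPM in chondroblasts and 2.36 to 5.49 CPM in the other 8 libraries. OCPs overlapped only with the chondroblasts. The log2 fold change in OCPs was -1.74 (SE 0.27, adjusted p = 0.00042, edgeR). Tie1 (Entrez 21846, chromosome 4), the related receptor, was lowest in chondroblasts, at 0.134, 0.137 and 0.157 CPM against 0.214 to 1.05 CPM elsewhere.

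All 3 chondroblast libraries were below every other library for Tie1, as they were for 11.6% of all genes tested. The margin was small, at 4 reads in each of the 3 against 5 in S9-JAG1+ replicate 1 and in OCP replicate 2. Tie1 was called lower in chondroblasts against the mean of the other 4 (-1.63, SE 0.39, adjusted p = 0.0027) and against OCPs (-1.48, SE 0.47, adjusted p = 0.0324, edgeR). The latter call ended without OCP replicate 1 (-1.25, adjusted p = 0.116). In S9-Pαhi LMPs it was called higher (1.27, SE 0.30, adjusted p = 0.0132), and not without S9-Pαhi replicate 3 (0.96, adjusted p = 0.131). Emcn, a sialomucin of capillaries and veins, was at 0.0336, 0.0684 and 0.0785 CPM in chondroblasts, under the 3-count floor, and at 0.0361 to 0.526 CPM elsewhere. Its call lower in chondroblasts (adjusted p = 0.0552) was lost without chondroblast replicate 1 or 2 (adjusted p = 0.163 and 0.116), and no fold is given because the level is under the floor. Esam, an endothelial adhesion protein, was at 0.142 to 0.639 CPM in all libraries and was called by neither edgeR nor DESeq2 (0 of 6 comparisons at an unadjusted p under 0.05).

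Of 14 further endothelial genes, 11 could be tested. In S9-SCA-1+ cells 3 were called higher (4.46% of all genes) and 2 lower (6.80%), and in chondroblasts 1 higher (11.0%) and 3 lower (1.71%). S9-JAG1+ LMPs had 2 higher (2.88%) and 1 lower (7.70%), and OCPs 1 higher (3.37%) and 1 lower (1.64%). Chondroblasts against OCPs had 1 higher (6.60%) and 2 lower (1.16%). In S9-Pαhi LMPs edgeR and DESeq2 called 0 (5 at an unadjusted p under 0.05), where edgeR called 1.53% of all genes higher and 2.31% lower. Fli1, an ETS factor related to Erg, was at 121.9 to 150.8 CPM in OCPs and 99.5 to 114.2 CPM in chondroblasts, 69.9 to 81.3 CPM in S9-Pαhi LMPs, 25.0 to 27.4 CPM in S9-JAG1+ LMPs and 18.4 and 13.8 CPM in S9-SCA-1+ cells. Ets1, another ETS factor, was at 233.9 and 214.5 CPM in S9-SCA-1+ cells and 59.8 to 131.8 CPM in the others. Eng, a TGF-beta co-receptor, was at 19.5 and 19.3 CPM against 4.01 to 10.1 CPM, while Egfl7, an endothelial secreted factor, was at 5.46 to 10.6 CPM throughout.

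The 5 leukocyte members were at or near the floor apart from 1 gene. Ptprc (Entrez 19264), the gated CD45, had no read in OCPs and no read, 0.0419 and 0.0793 CPM in S9-JAG1+ LMPs, and at most 0.226 CPM in S9-Pαhi LMPs and chondroblasts. In S9-SCA-1+ cells it was at 0.245 CPM (7 reads) and 0.392 CPM (11 reads), above the other 12 libraries but too low to be tested. Csf1r, the macrophage growth factor receptor, was at 0.178 CPM or less, Fcer1g, a signalling chain of Fc receptors, at 0.257 CPM or less, and Tyrobp, the adaptor of myeloid receptors, had 1 read in all, in chondroblast replicate 2.

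Cd68 (Entrez 12514, chromosome 11), a lysosomal protein abundant in macrophages and present at lower levels in other cells, was the exception. It was at 3.43, 8.67 and 6.06 CPM in S9-JAG1+ LMPs, 5.08, 4.32 and 2.39 CPM in S9-Pαhi LMPs, 2.60, 8.37 and 7.12 CPM in OCPs, 5.31, 5.10 and 3.02 CPM in chondroblasts, and 4.41 and 4.84 CPM in S9-SCA-1+ cells. All populations overlapped, and edgeR and DESeq2 called it in none of the 6 comparisons (0 at an unadjusted p under 0.05). Without Cd68 the 4 remaining members summed to at most 0.677 CPM in any library, too low to set against Cd68. Of 15 further leukocyte genes only 3 could be tested: Ly6c1 was called higher in S9-SCA-1+ cells (1.12 and 1.00 CPM) and in chondroblasts against OCPs, and lower in S9-JAG1+ LMPs, while Coro1a, an actin regulator, ran from 9.51 to 13.3 CPM and Laptm5, a lysosomal protein, from 0.747 to 3.87 CPM. Mrc1, the macrophage mannose receptor, was at 0.333 CPM or less.

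Surface ectoderm genes stood highest in chondroblasts. Of the 10 members, 7 had their highest mean there, and in 5 of these all 3 chondroblast libraries lay above the other 11, where 13.2% of all genes tested did so. Of 8 ectoderm members tested, 5 were called higher in chondroblasts, where 11.0% of all genes were. The median log2 fold change was 1.59 against 0.046 over all genes. The 5 were Krt18, Epcam, Grhl2, Cldn6 and Perp.

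Krt18 (Entrez 16668, chromosome 15, 102028216 to 102032026), a keratin of simple epithelia, was at 10.1, 11.1 and 9.11 CPM in chondroblasts, 6.41, 8.13 and 7.16 CPM in OCPs, 3.29, 3.87 and 2.09 CPM in S9-Pαhi LMPs, 3.08, 1.89 and 1.63 CPM in S9-JAG1+ LMPs, and 1.71 and 0.854 CPM in S9-SCA-1+ cells. Chondroblasts and OCPs, the populations with the Sox9 reporter, lay above the other 8 libraries without overlap. The log2 fold change was 1.84 in chondroblasts (SE 0.19, adjusted p = 2.52e-06), 1.23 in OCPs (SE 0.20, adjusted p = 0.00057) and -1.87 in S9-SCA-1+ cells (SE 0.30, adjusted p = 0.00023, edgeR). The OCP value was close to the fold limit and fell to between 1.13 and 1.18 without S9-JAG1+ replicate 3, S9-Pαhi replicate 3, OCP replicate 2 or S9-SCA-1+ replicate 3.

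Its usual partner did not follow. Krt8 (Entrez 16691, chromosome 15), which pairs with Krt18 in the filaments of simple epithelia, was at 1.51, 1.40 and 1.65 CPM in chondroblasts, 2.27, 2.66 and 1.88 CPM in OCPs, 2.20, 3.08 and 1.99 CPM in S9-Pαhi LMPs, 6.38, 1.26 and 1.98 CPM in S9-JAG1+ LMPs and 1.47 and 1.71 CPM in S9-SCA-1+ cells. Neither edgeR nor DESeq2 called it in any of the 6 comparisons (1 at an unadjusted p under 0.05). Per kilobase of exon, the mean of Krt18 was 7.22 CPM and that of Krt8 0.843 CPM in chondroblasts, against 0.917 and 0.880 CPM in S9-SCA-1+ cells. S9-JAG1+ replicate 1 was highest of all libraries for Krt8, and Dsp and En1, genes of desmosomes and of ventral ectoderm, were also higher in it (13.2 and 7.23 CPM) than in the other 2 S9-JAG1+ libraries (4.32 and 4.72 CPM for Dsp, 1.55 and 1.31 CPM for En1). Other ectoderm members were mixed among the 3 S9-JAG1+ libraries. Krt18 (3.08 CPM against 1.89 and 1.63 CPM) and Sp6 (0.728 CPM against 0.293 and 0.594 CPM) were also highest in replicate 1. Epcam, Grhl2 and Cldn6 were lowest in it (1.75, 0.257 and 0.214 CPM). At 0.128 CPM or less in it, Trp63 and Perp were highest and Krt5 and Krt14 lowest.

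Epcam (Entrez 17075, chromosome 17, 87635979 to 87651127), whose protein was gated out in all populations alike, was at 5.78, 5.99 and 5.73 CPM in chondroblasts, 3.37, 3.04 and 3.65 CPM in OCPs, 3.13, 2.93 and 1.99 CPM in S9-Pαhi LMPs, 1.75, 2.60 and 1.94 CPM in S9-JAG1+ LMPs, and 1.40 and 1.53 CPM in S9-SCA-1+ cells. The chondroblasts lay above and the S9-SCA-1+ cells below all others, with small spread within each. The log2 fold change was 1.34 in chondroblasts (SE 0.15, adjusted p = 3.36e-06, edgeR). Against OCPs it was 0.80 (SE 0.19, adjusted p = 0.00811), and in S9-SCA-1+ cells -1.15 (SE 0.21, adjusted p = 0.00061), both under the fold limit.

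Grhl2, a grainyhead factor that maintains epithelia, was at 1.75, 2.84 and 2.16 CPM in chondroblasts and 0.214 to 1.62 CPM elsewhere, with OCP replicate 2 nearest. Its log2 fold change in chondroblasts was 1.94 (SE 0.29, adjusted p = 6.59e-05, edgeR). Perp, a desmosome protein, was at 1.48, 1.54 and 1.33 CPM in chondroblasts, 0.122, 0.523 and 0.398 CPM in OCPs, and 0.0396 to 0.244 CPM in the other 8 libraries. Perp was called higher in chondroblasts against the mean of the other 4 (adjusted p = 8.27e-07) and against OCPs (adjusted p = 0.0028, edgeR). Since S9-JAG1+ LMPs and S9-SCA-1+ cells were under the floor, only the p is given. Its calls lower were in S9-JAG1+ LMPs (adjusted p = 0.0109) and in S9-SCA-1+ cells (adjusted p = 0.0469), and the latter was lost without either S9-SCA-1+ library (adjusted p = 0.201 and 0.204).

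Cldn6, a tight junction protein of embryonic epithelia, was at 0.807, 0.958 and 1.37 CPM in chondroblasts and at 0.446 CPM or less in the other 11 libraries. All chondroblast libraries lay above the rest. It was called higher in chondroblasts (adjusted p = 0.00064, edgeR) and against OCPs (adjusted p = 0.0577), the second call ending without chondroblast replicate 2 or 3 (adjusted p = 0.111 and 0.16). In S9-SCA-1+ cells, where it was under the floor, it was called lower (adjusted p = 0.0526), and not without either of their libraries (adjusted p = 0.176 and 0.275).

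A marker of stratified ectoderm was highest in S9-SCA-1+ cells. Trp63, the transcription factor of the surface ectoderm and of basal keratinocytes, was at 0.979 and 1.03 CPM in S9-SCA-1+ cells and 0.0419 to 0.616 CPM in the other 12 libraries. Both S9-SCA-1+ libraries were above all others, at 28 and 29 reads, and it was called higher there (adjusted p = 0.0011, edgeR), with either library alone as well. No fold is given, because S9-JAG1+ LMPs were at or under the floor. It was called lower in S9-JAG1+ LMPs, which were at 0.128, 0.0419 and 0.0793 CPM (adjusted p = 0.0068). Krt5 and Krt14, the paired basal keratins that accompany Trp63 in ectoderm, did not rise in S9-SCA-1+ cells, with 0.210 and no CPM for Krt5 and no and 0.0712 CPM for Krt14.

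Krt5 and Krt14 were instead highest in a single chondroblast library. In replicate 3 Krt5 was at 0.981 CPM (25 reads) and Krt14 at 0.824 CPM (21 reads), while the other 13 libraries were at no more than 0.366 and 0.217 CPM. The 2 other chondroblast libraries were at 0.101 and 0.274 CPM for Krt5 and 0.0672 and 0.0342 CPM for Krt14. Neither gene could be tested. The 5 markers called higher in chondroblasts were not highest in replicate 3 as a group: Krt18, Epcam, Grhl2 and Perp peaked in replicate 2 and Cldn6 in replicate 3. Sp6, a factor of the apical ectodermal ridge, was highest in S9-JAG1+ LMPs (0.728, 0.293 and 0.594 CPM) and at 0.0723 to 0.448 CPM elsewhere. It was called higher there (adjusted p = 0.0041, edgeR, with no fold since S9-SCA-1+ cells were at the floor), but 86.7% of its exon bases lie antisense to Gm11532, so that the source of the reads is uncertain.

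Chondroblasts also had the most calls higher on the wider ectoderm list, as they did over all genes. Of 15 further genes, 10 could be tested. In chondroblasts 7 were called higher (11.0% of all genes) and 1 lower (1.71%), and against OCPs 7 higher (6.60%) and 0 lower (1.16%). S9-SCA-1+ cells had 3 higher (4.46%) and 3 lower (6.80%), and S9-JAG1+ LMPs 2 higher (2.88%) and 2 lower (7.70%). S9-Pαhi LMPs and OCPs had 2 lower each (2.31% and 1.64%). Dsp, the desmoplakin of desmosomes, was at 13.2, 12.4 and 18.1 CPM in chondroblasts against 2.19 to 13.2 CPM elsewhere, and En1 was at 7.43, 4.72 and 2.20 CPM. Fgf8, the growth factor of the apical ridge, was at 2.02, 3.80 and 1.22 CPM in chondroblasts and 1.40 and 1.99 CPM in S9-SCA-1+ cells, against at most 0.872 CPM in the rest. Cdh3, P-cadherin, was at 44.6 to 139.0 CPM in all 14 libraries. Chosen after its values were seen, Cdh1, the E-cadherin of epithelia, was at 0.0672, 0.103 and 0.550 CPM in the chondroblasts, 0.280 and 0.142 CPM in the S9-SCA-1+ libraries, and 0.0813 CPM or less in the other 9. The part of ectodermal cells in the chondroblast levels was not tested.

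**Figure D4:**
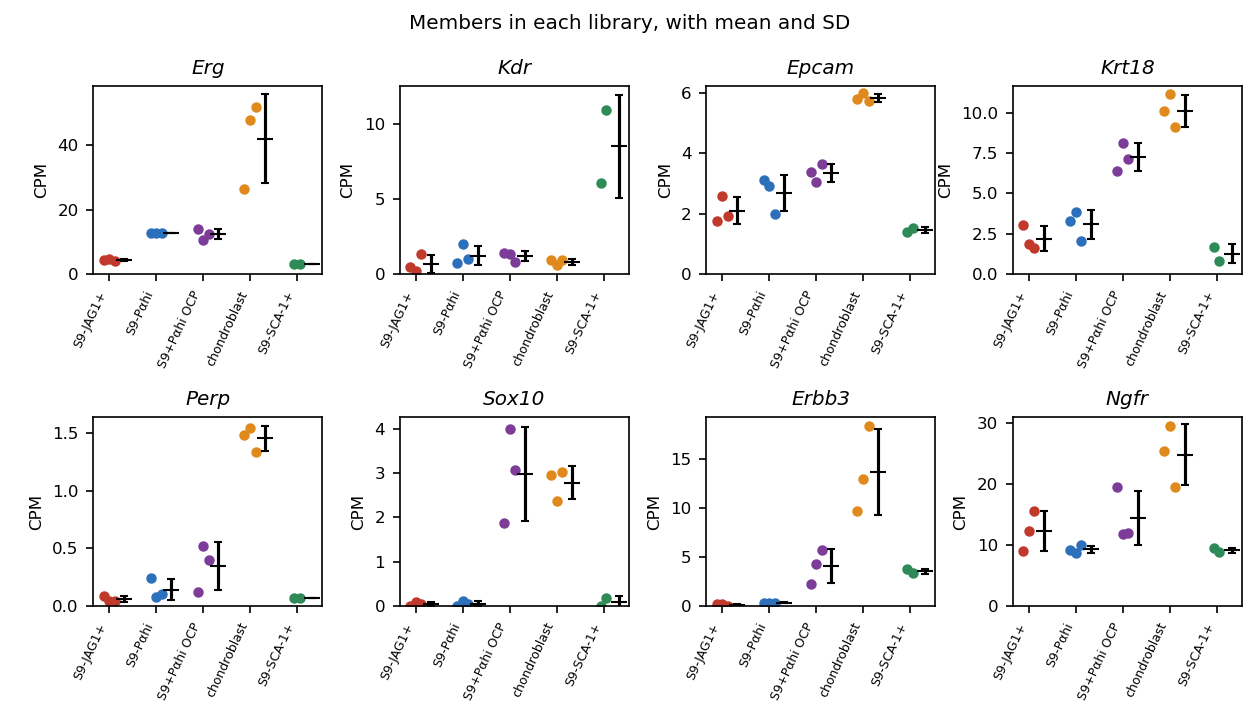
Level (CPM on TMM scaled totals, linear axes from 0, a separate scale for each gene) of 8 markers in each library (points, coloured by population), with the population mean and SD (black; n = 3, and n = 2 for S9-SCA-1+). Chondroblasts are highest for Erg, Epcam, Krt18, Perp, Erbb3 and, by mean, Ngfr, S9-SCA-1+ cells for Kdr, and Sox10 is at 1.87 to 3.99 CPM in OCPs and chondroblasts and at 0.178 CPM or less elsewhere.

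Among the neural crest and glial genes, Sox10 and Erbb3 marked both Sox9 reporter populations. Sox10 (Entrez 20665, chromosome 15, 79154913 to 79164490), the transcription factor that keeps neural crest and Schwann cell precursors, was at 1.87, 3.99 and 3.07 CPM in OCPs and 2.96, 2.36 and 3.02 CPM in chondroblasts. It had no read in S9-JAG1+ replicate 1, S9-Pαhi replicate 1 or S9-SCA-1+ replicate 2, and 0.0396 to 0.178 CPM in the other 5 libraries. The 6 libraries with the Sox9 reporter were thus apart from the 8 without, and OCPs and chondroblasts overlapped. Sox10 was called higher in OCPs (adjusted p = 4.96e-06) and in chondroblasts (adjusted p = 1.34e-06, edgeR), with no fold given because the others were near or under the floor. It was called lower in S9-JAG1+ LMPs (adjusted p = 0.0057), S9-Pαhi LMPs (adjusted p = 0.0398) and S9-SCA-1+ cells (adjusted p = 0.0675). These calls depend on a few reads: without S9-SCA-1+ replicate 3 the first 2 had adjusted p = 0.996 and 0.995. The S9-Pαhi call also ended without S9-JAG1+ replicate 2 or S9-Pαhi replicate 1 or 3 (adjusted p = 0.116 to 0.159), and that of S9-SCA-1+ cells without S9-JAG1+ replicate 2, S9-Pαhi replicate 2 or S9-SCA-1+ replicate 2 (adjusted p = 0.178 to 0.382).

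Erbb3 (Entrez 13867, chromosome 10, 128567523 to 128589635), the neuregulin receptor of Schwann cell precursors, also reached the S9-SCA-1+ cells. It was at 9.68, 13.0 and 18.3 CPM in chondroblasts, 2.27, 4.28 and 5.71 CPM in OCPs, 3.74 and 3.38 CPM in S9-SCA-1+ cells, 0.285, 0.338 and 0.349 CPM in S9-Pαhi LMPs and 0.171, 0.210 and 0.0396 CPM in S9-JAG1+ LMPs. Chondroblasts lay above all others, OCPs and S9-SCA-1+ cells overlapped, and the 2 LMP populations lay below the rest, with the S9-JAG1+ libraries lowest. The log2 fold change was 3.91 in chondroblasts (SE 0.24, adjusted p = 1.73e-08), 1.74 in OCPs (SE 0.27, adjusted p = 0.00042) and 1.49 in S9-SCA-1+ cells (SE 0.31, adjusted p = 0.0016). It was -2.82 in S9-Pαhi LMPs (SE 0.42, adjusted p = 0.00046) and -4.31 in S9-JAG1+ LMPs (SE 0.46, adjusted p = 5.19e-06), and 1.74 in chondroblasts against OCPs (SE 0.30, adjusted p = 0.00096, edgeR). The S9-JAG1+ libraries held only 4, 5 and 1 reads of Erbb3, near the floor, so the size of their fold is uncertain. In S9-SCA-1+ cells Sox10 had no read in replicate 2 and 5 reads (0.178 CPM) in replicate 3. Erbb3 is also known from migrating muscle precursors, whose genes Pax3, Lbx1 and Met were high in both libraries (Lbx1 at 262.7 and 233.0 CPM, Met at 719.0 and 659.5 CPM). The part of such cells in the Erbb3 level was not tested.

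Ngfr (Entrez 18053, chromosome 11), the low-affinity neurotrophin receptor, which is found in neural crest and in mesenchyme, was abundant everywhere. It was at 8.95, 12.3 and 15.5 CPM in S9-JAG1+ LMPs, 9.23, 8.65 and 9.91 CPM in S9-Pαhi LMPs, 19.5, 11.7 and 11.9 CPM in OCPs, 25.4, 29.5 and 19.5 CPM in chondroblasts, and 9.44 and 8.80 CPM in S9-SCA-1+ cells. Its log2 fold change in chondroblasts was 1.17 (SE 0.16, adjusted p = 3.4e-05, edgeR), under the fold limit of 1.2, and neither edgeR nor DESeq2 called it in any of the 6 comparisons (4 at an unadjusted p under 0.05). The lowest chondroblast library lay barely above the highest of the others, OCP replicate 1. Foxd3, a factor of early neural crest, was at 0.203, 0.570 and 0.0361 CPM in OCPs and 0.269, 0.376 and no CPM in chondroblasts, and at 0.0407 CPM or less elsewhere. It was called higher in both (adjusted p = 0.0505 and 0.0313), at no more than 12 reads in any library.

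Of 10 further glial genes, 6 could be tested. Fxyd1 was at 1.92 to 2.43 CPM in OCPs and 2.92 to 3.96 CPM in chondroblasts, against 0.159 to 1.08 CPM elsewhere. Gfra3, a receptor subunit for artemin, ran the other way, with 2.33 to 4.32 CPM in both LMP populations, 0.746 to 2.27 CPM in OCPs and chondroblasts, and 0.0350 and 0.0356 CPM in S9-SCA-1+ cells. Tubb3, a neuronal tubulin, was at 2.00 to 7.94 CPM in all libraries. Among these 6, 3 were called higher in chondroblasts (11.0% of all genes) and 1 lower in S9-SCA-1+ cells (6.80%). Chondroblasts against OCPs had 2 higher (6.60%) and 0 lower (1.16%). In OCPs edgeR called 0 and DESeq2 called 1 (4 at an unadjusted p under 0.05), where edgeR called 3.37% of all genes higher and 1.64% lower. In each LMP population 1 was called higher and 2 lower. The shares of all genes were 2.88% and 7.70% in S9-JAG1+ LMPs and 1.53% and 2.31% in S9-Pαhi LMPs.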

How the data were processed

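RNA of 14 libraries was measured by poly(A)-selected single-end RNA-seq. According to their methods, the authors aligned reads with STAR to mm10, kept 1 position for a read with several, and deposited the count of reads starting in exons of RefSeq mRNAs for each gene; whether strand was used is not given in the sources used here. These are raw counts without normalization, and 24374 of 24454 Entrez identifiers matched a symbol (the other 80 held 0.358% of counts).

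From these counts, edgeR 4.0.16 in R 4.3.3 was run with filterByExpr by population (15125 genes), TMM scaling, a mean for each of the 5 populations over all 14 libraries and the quasi-likelihood F test, with Benjamini-Hochberg adjustment over all genes tested. Calls needed an adjusted p no higher than 0.1 with a log2 fold change of 1.2 or more in size, limits taken from the study's methods. Standard errors are the log2 fold change over the square root of F. The share of reads between globins was given with 95% exact binomial intervals (scipy 1.17.1), and 3 counts were taken as the floor. Alternatives were DESeq2 1.42.0, other scalings, no filter, a limit on adjusted p alone, a term for replicate number and leaving out each library. The fits were tested on simulated counts with known changes.

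Library totals are in the report. Replicate libraries differed by 8.20 to 81.1 times the variance of sampling noise, so none was counted as a repeat of another. The 35 markers and the wider lists were chosen with earlier results of these data known. All markers are given, and of the wider lists up to 4 genes a lineage with the highest mean, except where stated; 1 glial gene under this rule is not reported here. Positions came from an annotation of GRCm38 (mm10).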

Additional observations from a re-analysis of the deposited data

How the results depend on the processing

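The numbers of markers called were 11 in S9-JAG1+ LMPs, 3 in S9-Pαhi LMPs, 6 in OCPs, 11 in chondroblasts, 15 in S9-SCA-1+ cells and 6 in chondroblasts against OCPs. They stayed within 1.5 times of this with DESeq2's size factors, with library totals alone, with no filter on low counts, with DESeq2's Wald test and with a replicate block, and with an adjusted p of at most 0.05 and no fold limit except in S9-Pαhi LMPs, where 5 were called. Leaving out 1 library at a time gave 6 to 13, 1 to 6, 4 to 7, 9 to 14, 9 to 15 and 5 to 7 in the same order. The lowest were 6 in S9-JAG1+ LMPs and 9 in S9-SCA-1+ cells without S9-SCA-1+ replicate 3, and 1 in S9-Pαhi LMPs without their replicate 3, while S9-JAG1+ LMPs had 7 without their replicate 1 and S9-Pαhi LMPs had 6 without S9-SCA-1+ replicate 2. Of 52 single calls, none turned its direction in any alternative, and 66 of 1034 repeats lost the call. The replicate numbers were not taken to pair the samples, since only 4 of 26 pairs with the same number had deviations correlated over 0.1 (range -0.18 to 0.31). Among pairs with different numbers 6 of 52 did (range -0.31 to 0.41). Whether pools were shared under other numbers is not known, and a block by replicate number would not cover it. With the replicate number as a block, 3 calls were lost, all in S9-JAG1+ LMPs: Hba-a1 at -1.84, Hba-x at -1.89 and Hbb-y at -1.78 on the log2 scale (adjusted p = 0.137, 0.148 and 0.172, edgeR). Added after seeing the data, the sum of each list without its most abundant member (Erg, Hbb-y, Cd68, Krt18 or Ngfr) moved the endothelial sum in chondroblasts from 45.7 to 3.74 CPM and the glial sum in S9-Pαhi LMPs from 9.65 to 0.392 CPM, so those sums are mostly 1 gene. Depth limits the 8 untested markers, and markers under 3 counts in a population have no interpretable fold.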
